A study of Mus musculus with 9 samples.

Results

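Gene expression was compared between D2.OR cells grown in non-fibrillar collagen I and D2.OR cells grown in Matrigel, 3 arrays each, and 19938 genes were tested. These 6 arrays were 6 of the 9 in the series. They were chosen by their titles, as the growth label of the Matrigel arrays repeats the wording of the non-fibrillar arrays, so titles alone place 3 arrays in Matrigel. D2.OR is a tumor line from mouse mammary gland, whose cells can stay dormant for long periods after spreading, and all 9 arrays came from this line in 3D culture. The labels name 1 difference between the groups, the matrix: collagen I in a form without fibrils, collagen I assembled into fibrils, or Matrigel, an extract of tumor basement membrane. No genotype, added agent or culture time is given in the sources used here, and a single line grown without other cell types limits what these cultures stand for.

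Collagen I is the main protein of the connective tissue around mammary ducts, where it is laid down as fibrils, and cells bind it through integrins and discoidin domain receptors. Matrigel presents laminins, type IV collagen and perlecan, which cells bind through other integrins and through dystroglycan. In mammary epithelium, contact with a basement membrane is known to favour quiet, organised cells, whereas contact with collagen I is known to accompany growth and invasion, and the state of the collagen can change which receptors engage.

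The Matrigel arrays were deposited later than the collagen arrays, and a batch tied to that step and the matrix cannot be told apart. The labels do not say whether replicates were separate cultures; the p-values therefore reflect only how far these samples spread, which may be technical. Pearson's r over all probe sets was 0.995 to 0.9963 within groups and 0.9922 to 0.9947 between the groups compared, a description across genes, which are not independent replicates. Principal component 1 of the 6 arrays (58.8% of the variance) had the non-fibrillar arrays at 12.8, 12.5 and 12.1 and the Matrigel arrays at -11.1, -14.2 and -12.1. Epithelial keratins were abundant, with Krt8 at 13.12 to 13.32 and Krt18 at 12.60 to 12.92 log2 units over the 6 arrays, and E-cadherin (Cdh1) was at 9.0 to 9.12. The mesenchymal filament vimentin (Vim) was at 13.25 to 13.33, while Epcam (5.84 to 6.24) and Krt19 (5.14 to 5.43), also epithelial markers, lay below the median gene value of 6.44.

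In non-fibrillar collagen, 27 of 31 measured DNA replication genes, 22 of 29 mitosis genes and 15 of 27 hypoxia and glycolysis genes were called higher than in Matrigel. Called lower were 23 of 30 lysosomal genes and 11 of 25 lipid uptake and storage genes. So were 6 of 9 genes in a list of cholesterol efflux genes and targets of the oxysterol receptor LXR. In all, 2755 genes passed limma's test at an adjusted p under 0.05, which is 13.8% of the genes tested. Of these, 1345 were higher in non-fibrillar collagen (6.75% of the genes tested) and 1410 lower (7.07%). These shares are the background for each list count below, and a list near them does not stand out. Most differences were small, with a median size of 0.291 log2 units among the genes called. A difference of at least 2-fold was reached by 51 of them, 13 higher and 38 lower. For 5661 genes, 28.4% of the total, all 3 arrays of one group lay above all 3 of the other. Most calls lay among brighter genes. When only the 9969 genes with a mean above the median were tested, 1741 were higher and 1687 lower, and 2529 of the 2755 calls were kept. The shares over all genes are therefore below those among brighter genes.

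The largest rise was in Il1a, the membrane-associated cytokine interleukin-1 alpha. It measured 10.21, 10.003 and 9.90 log2 units in non-fibrillar collagen and 8.47, 7.81 and 7.93 in Matrigel, a 3.91-fold difference (1.97 ± 0.209 SE, n = 3 per group, adjusted p = 0.00031). All non-fibrillar arrays lay above all Matrigel arrays, which was a condition for choosing the genes with the largest differences. Matrigel replicate 1 was the highest of its group. Nt5e encodes CD73, the ectoenzyme that makes adenosine from AMP outside the cell. It measured 10.86, 10.76 and 10.77 in non-fibrillar collagen against 9.28, 9.01 and 9.09 in Matrigel, 3.18-fold higher (1.67 ± 0.0765, adjusted p = 4.3e-06).

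Itga2 encodes integrin alpha 2, part of a receptor for collagen. It was at 7.89, 7.89 and 7.78 in non-fibrillar collagen and at 6.45, 6.59 and 6.48 in Matrigel. The difference was 2.54-fold (1.35 ± 0.052, adjusted p = 1.5e-06). The spread inside each group was far smaller than the gap between them, which choosing genes by size and smallest p favours. Igfbp4, a secreted binding protein for insulin-like growth factors, was at 8.57, 8.46 and 8.52 against 7.39, 7.21 and 7.24, 2.36-fold higher (1.24 ± 0.0807, adjusted p = 2e-05). The keratin Krt7 was at 10.68, 10.67 and 10.66 against 9.50, 9.42 and 9.48, 2.30-fold higher (1.20 ± 0.0386, adjusted p = 5.6e-07). Krt7 shared the smallest adjusted p of the whole comparison with Parm1, described below, followed by Wfdc2 and Itga2.

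The urokinase Plau, a protease that activates plasminogen, was 2.34-fold higher (1.22 ± 0.101), at 9.22, 9.05 and 8.95 against 7.92, 7.79 and 7.84. The matrix protein tenascin C (Tnc) was 2.12-fold higher (1.08 ± 0.0555), at 8.12, 8.0 and 8.07 against 6.95, 7.0 and 6.99. The secreted protein Wfdc2 was 2.16-fold higher (1.11 ± 0.0428) and Rgs16, which switches off G protein signalling, 2.30-fold higher (1.20 ± 0.0618). The remaining genes of the 12 largest rises were the hormone erythroferrone Erfe (1.06 ± 0.0589), the scramblase family member Plscr2 (1.06 ± 0.118) and the prolyl hydroxylase Egln3 (1.04 ± 0.214). Egln3 differed most between replicates, at 7.90, 7.63 and 8.64 in non-fibrillar collagen against 7.14, 6.96 and 6.95 in Matrigel. Adjusted p for these 7 genes ran from 1.5e-06 for Wfdc2 to 0.01 for Egln3.

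The largest fall was in Mgll, the monoglyceride lipase that releases the last fatty acid of stored fat. It measured 6.37, 6.27 and 7.11 in non-fibrillar collagen and 8.56, 8.94 and 8.80 in Matrigel, 4.54-fold lower (-2.18 ± 0.218, adjusted p = 0.00022). Non-fibrillar replicate 3 was the highest of its group, still below all Matrigel arrays. Selenop, the secreted selenium carrier, was at 6.82, 6.61 and 7.10 against 8.65, 8.76 and 8.65, 3.59-fold lower (-1.84 ± 0.123, adjusted p = 2.1e-05). Parm1, a mucin-like membrane protein, was at 6.55, 6.49 and 6.38 against 8.24, 8.34 and 8.34, 3.57-fold lower (-1.84 ± 0.0586, adjusted p = 5.6e-07).

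Among the other large falls were metabolic enzymes and membrane transporters. Pcx, pyruvate carboxylase, which feeds carbon into the TCA cycle, was at 7.73, 7.81 and 8.16 against 9.37, 9.39 and 9.52, 2.88-fold lower (-1.53 ± 0.127). Pdk4, which blocks the other entry of pyruvate into that cycle, was at 7.69, 7.24 and 7.54 against 9.12, 8.98 and 8.78, 2.77-fold lower (-1.47 ± 0.136). The phospholipid flippase Atp8b1 was 3.31-fold lower (-1.73 ± 0.106) and the related transporter Atp13a4 2.66-fold lower (-1.41 ± 0.0805). The membrane protein Plxdc1 (-1.77 ± 0.119), the protease Bace2 (-1.72 ± 0.143) and the vesicle docking protein Sytl2 (-1.60 ± 0.0893) also fell. The list ended with 2 glycoproteins of the lysosome, Cd68 (-1.38 ± 0.0812) and Gpnmb (-1.37 ± 0.0624), described with that organelle below. Adjusted p for these 9 genes was 0.00015 or less, and each of the 24 genes with the largest differences passed whichever array of the groups compared was left out.

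**Figure D1:**
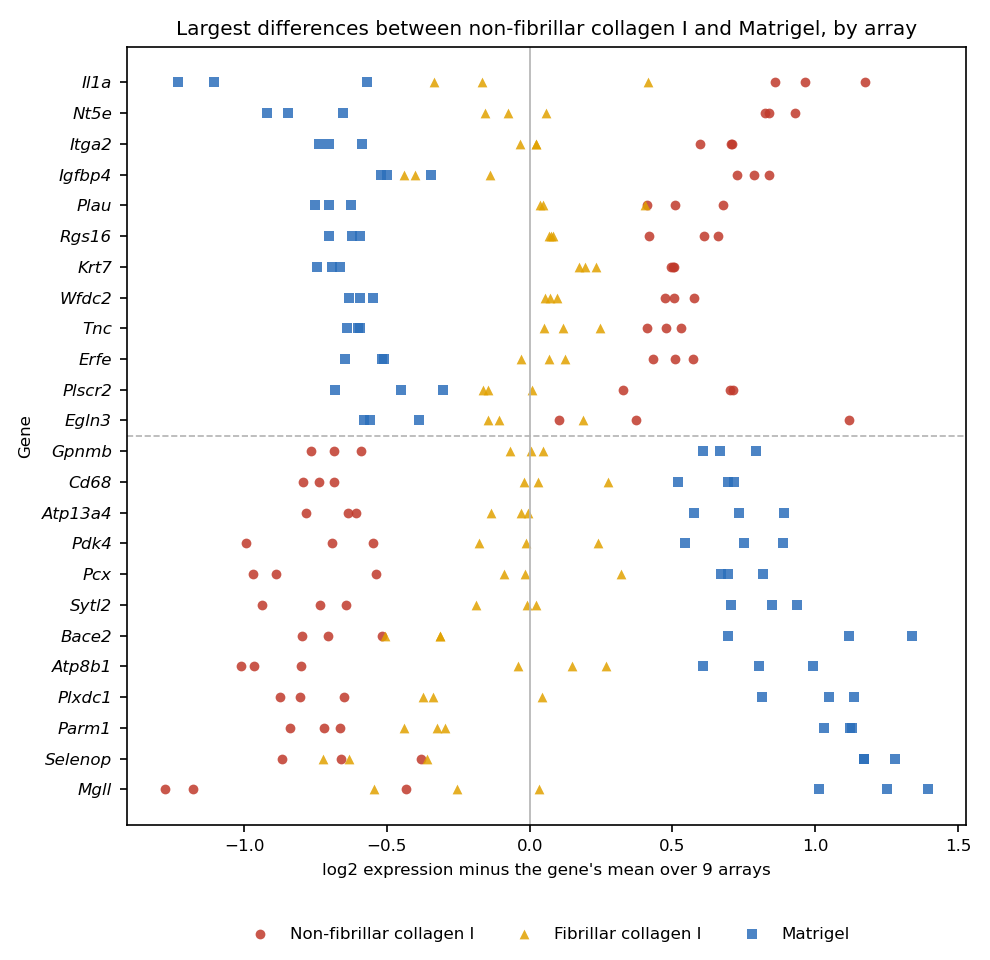
Log2 expression of the 24 genes with the largest differences, minus each gene's mean over 9 arrays (x axis), with 1 point per array: circles for non-fibrillar collagen I, squares for Matrigel and triangles for fibrillar collagen I. Circles and squares do not overlap for any of the 24 genes, because only genes without such overlap were eligible. The triangles of Selenop lie among the circles and those of Igfbp4 lie near the squares.

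Genes that copy DNA were higher in non-fibrillar collagen almost throughout. Of 31 measured genes that act in replication or at the entry to S phase, 27 rose and 4 did not pass, against 6.75% of all genes that rose. The median difference of the list was 0.37 log2 units, against 0.0006 over all genes. Rrm1, the large subunit of the enzyme that makes deoxynucleotides, was at 10.73, 10.79 and 10.77 against 10.26, 10.28 and 10.32, 1.39-fold higher (0.48 ± 0.0403, adjusted p = 8.7e-05). The helicase subunits Mcm6 (8.84, 8.75 and 8.77 against 8.31, 8.24 and 8.21) and Mcm7 (9.83, 9.81 and 9.79 against 9.41, 9.38 and 9.37) rose by 0.53 ± 0.061 and 0.43 ± 0.0473. For both subunits the groups lay apart by more than the range inside either group, which choosing genes by small p or large size favours. The primase subunit Prim1 (0.57 ± 0.0881), cyclin E2 (Ccne2, 0.52 ± 0.0829), thymidine kinase Tk1 (0.51 ± 0.0968) and the helicase loader Cdc45 (0.41 ± 0.0437) also rose. The licensing factor Cdt1 was at -0.16 and did not pass, nor did the transcription factor E2f1 at 0.09.

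Of 29 measured mitosis genes, 22 rose and 7 did not pass, with a median of 0.331, and 29 of 29 had a difference above 0. The microtubule depolymerase Kif2c was at 8.36, 8.50 and 8.43 against 7.88, 7.90 and 7.86, 1.46-fold higher (0.55 ± 0.0441, adjusted p = 6.6e-05). The spindle checkpoint kinase Bub1 rose by 0.58 ± 0.082, from 9.26, 9.04 and 9.0 in Matrigel to 9.73, 9.71 and 9.62. Topoisomerase Top2a (10.10, 10.11 and 9.97 against 9.64, 9.63 and 9.62) and the condensin subunit Ncapg (8.83, 9.04 and 8.94 against 8.36, 8.43 and 8.48) rose by 0.43 ± 0.0464 and 0.51 ± 0.0578. Kif20a, a motor of cell division, rose by 0.39 ± 0.041. Mki67, the antigen used to stain cycling cells, had the smallest difference of the list at 0.11 and did not pass. In bulk samples a larger share of cycling cells and more RNA per cycling cell cannot be told apart.

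Regulators that act before the G1/S transition were mixed. Cyclin D1 (Ccnd1) rose 1.44-fold (0.53 ± 0.0491, adjusted p = 0.00015), at 12.08, 11.96 and 12.10 against 11.49, 11.53 and 11.54. Among 7 measured D-type cyclins and G1 kinases it was 1 of 2 that rose, the other being Cdk2 at 0.17 ± 0.041, whose call was lost without non-fibrillar replicate 3 or without Matrigel replicate 2 or 3 (adjusted p up to 0.0717). Of 20 cell cycle inhibitors and dormancy regulators, 4 fell, 1 rose and 15 did not pass, with a median of 0.01 (2 rose without non-fibrillar replicate 1), against 7.07% of all genes that fell. The retinoblastoma gene Rb1 (-0.39 ± 0.0413), the transcription factor Foxo1 (-0.39 ± 0.0445) and the growth arrest gene Gas1 (-0.55 ± 0.081) fell, whereas Rbl1, a relative of Rb1, rose by 0.34 ± 0.0515.

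Promoters of cell cycle genes are known to carry short motifs, and the windows of the called members with the smallest p that hold the motif are shown because these genes moved together. Windows are the 250 bases before the gene's start in RefSeq (GRCm38.p6), 5′ to 3′ on the gene's strand, and the window listed first was used for each gene, which gave 15614 windows for the genes tested. The E2F motif was searched on both strands as TTTGGCGC, TTTCCCGC or TTTCGCGC, and stood in 7 of 26 windows of the DNA replication list (26.9%), in 6 of 22 of its called members and in 2.24% of all windows. The 2 windows are those of Mcm7 (chr5:138171884-138172133, minus strand) and Mcm6 (chr1:128359706-128359955, minus strand), and capitals mark the E2F motif on either strand. In Mcm6 the first run of capitals holds 2 overlapping matches on opposite strands.
Mcm7: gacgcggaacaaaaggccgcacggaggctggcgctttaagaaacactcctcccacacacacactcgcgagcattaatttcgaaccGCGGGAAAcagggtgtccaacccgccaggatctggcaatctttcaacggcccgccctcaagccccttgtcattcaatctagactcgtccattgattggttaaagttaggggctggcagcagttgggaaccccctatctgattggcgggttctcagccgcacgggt
Mcm6: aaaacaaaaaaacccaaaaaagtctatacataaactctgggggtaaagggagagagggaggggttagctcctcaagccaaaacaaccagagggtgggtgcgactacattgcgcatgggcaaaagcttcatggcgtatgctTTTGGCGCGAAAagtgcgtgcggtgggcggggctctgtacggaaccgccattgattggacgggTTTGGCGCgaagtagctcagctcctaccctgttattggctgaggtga

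For mitosis genes the motifs were TTTGAA, the core of the cell cycle homology region, and CCAAT, the box bound by the factor NF-Y, again on both strands. TTTGAA stood in 11 of 25 windows of the list (44.0%) and 6 of 19 of its called members, against 13.7% of all windows. CCAAT stood in 20 of 25 (80.0%) and 14 of 19, against 35.5%. The windows of Top2a (chr11:99024190-99024439, minus strand) and Ncapg (chr5:45669675-45669924, plus strand) hold both, and capitals mark either motif on either strand. Top2a holds 8 matches and Ncapg 2. A match describes letters in this window and is no measured binding site.
Top2a: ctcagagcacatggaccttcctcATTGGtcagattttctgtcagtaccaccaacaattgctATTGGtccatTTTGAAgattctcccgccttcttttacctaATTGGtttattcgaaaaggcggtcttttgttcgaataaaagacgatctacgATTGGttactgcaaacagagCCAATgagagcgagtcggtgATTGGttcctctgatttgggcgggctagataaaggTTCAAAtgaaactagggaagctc
Ncapg: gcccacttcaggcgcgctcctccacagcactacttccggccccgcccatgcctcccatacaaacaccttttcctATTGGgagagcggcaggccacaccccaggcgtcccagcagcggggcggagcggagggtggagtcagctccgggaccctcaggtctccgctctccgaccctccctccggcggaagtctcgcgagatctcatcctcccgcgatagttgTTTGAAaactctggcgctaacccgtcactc

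Lysosomal genes were lower in non-fibrillar collagen. Of 30 measured members, 23 fell, 1 rose and 6 did not pass, with a median of -0.308. The one that rose was the protease cathepsin H (Ctsh, 0.36 ± 0.0442). The largest falls were in Cd68, a heavily glycosylated membrane protein of late endosomes, and Gpnmb, a glycoprotein of lysosomes and melanosomes. Cd68 was at 7.62, 7.56 and 7.67 in non-fibrillar collagen and at 8.88, 9.05 and 9.07 in Matrigel, 2.61-fold lower, and Gpnmb at 7.46, 7.38 and 7.56 against 8.76, 8.94 and 8.81, 2.58-fold lower. Neither gene's arrays overlapped between the groups, which was a condition for choosing the genes with the largest differences. Cd68 is also used as a macrophage marker. Of 16 macrophage markers 1 rose (Cd14, whose call was lost in 4 of the 6 fits that left out an array) and 1 fell (Cd68). That is 6.25% each way, near the shares over all genes of 6.75% higher and 7.07% lower. Cd14 in this list was at 7.92, 7.94 and 8.12 against 7.68, 7.67 and 7.79, above the median gene value of 6.44. The mean level of that list was 5.07 to 5.11 in non-fibrillar collagen and 5.12 to 5.17 in Matrigel, with the defining markers Ptprc at 4.72 to 5.12, Csf1r at 4.72 to 4.84 and Adgre1 at 3.99 to 4.09, where the lower quartile of all genes was 4.87. The median difference of the list, 0.037, had the opposite sign to the difference of these means, and what part such cells had in the lysosome result was not tested.

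Enzymes inside the lysosome were lower too. Lipa, the acid lipase that frees cholesterol from its esters, was at 10.92, 10.81 and 10.95 against 11.93, 12.06 and 12.04, 2.16-fold lower (-1.11 ± 0.0513, adjusted p = 4.3e-06). Gla, the alpha-galactosidase that breaks down glycolipids, was at 10.07, 10.16 and 10.25 against 10.89, 10.99 and 10.86, 1.69-fold lower (-0.76 ± 0.056, adjusted p = 3.8e-05). The sphingolipid hydrolase subunit Hexa fell by 0.57 and the cholesterol exporter of the lysosome, Npc1, fell by 0.70. Npc1 was at 9.30, 9.38 and 9.39 against 9.84, 10.24 and 10.10, so its Matrigel arrays spread more widely than its non-fibrillar arrays. Of 20 autophagy genes and MiT/TFE regulators, 6 fell and 14 did not pass, with a median of -0.096; without Matrigel replicate 2 only 3 fell. They included Tfeb, the factor that switches on lysosomal genes (-0.40 ± 0.0576), and Gabarapl1, a coat protein of autophagosomes (-0.46 ± 0.0455).

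TFEB and its relatives are known to bind the E-box within the lysosomal motif TCACGTG, and windows that hold it are shown because the list fell together. The motif stood on either strand in 6 of 25 lysosome windows (24%), in 5 of 20 of called members and in 3.87% of all windows. The windows are those of Gla (chrX:134601006-134601255, minus strand) and of Mcoln1, the calcium channel of the lysosome (chr8:3500269-3500518, plus strand), with the motif in capitals. A run of 8 capitals is a pair of overlapping matches on opposite strands. Mcoln1 was at 10.11, 10.10 and 10.22 against 10.46, 10.59 and 10.53.
Gla: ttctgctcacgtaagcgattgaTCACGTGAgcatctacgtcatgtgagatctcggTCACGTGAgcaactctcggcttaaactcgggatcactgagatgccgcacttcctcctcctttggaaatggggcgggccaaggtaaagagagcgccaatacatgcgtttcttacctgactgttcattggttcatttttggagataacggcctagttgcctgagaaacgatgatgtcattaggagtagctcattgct
Mcoln1: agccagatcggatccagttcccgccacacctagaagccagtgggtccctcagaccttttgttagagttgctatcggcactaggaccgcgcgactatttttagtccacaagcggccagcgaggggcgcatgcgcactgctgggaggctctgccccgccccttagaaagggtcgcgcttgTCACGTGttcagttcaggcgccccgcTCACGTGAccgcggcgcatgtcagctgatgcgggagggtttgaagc

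Targets of the oxysterol receptor LXR and genes of cholesterol efflux were also lower. Of 9 measured LXR targets and efflux genes, 6 fell and 3 did not pass, with a median of -0.649, the lowest of the 56 lists. Nr1h3, which encodes the oxysterol receptor LXR alpha itself, was at 8.55, 8.73 and 8.95 against 9.62, 9.73 and 9.77, 1.96-fold lower (-0.97 ± 0.108, adjusted p = 0.00041). Abca1, the pump that loads cholesterol onto apolipoproteins, was at 7.91, 8.03 and 8.11 against 8.77, 9.06 and 8.96, 1.89-fold lower (-0.92 ± 0.0836, adjusted p = 0.00014). Its relative Abcg1 (-0.77 ± 0.0866), Mylip, the ligase that degrades the LDL receptor (-0.78 ± 0.0665), and the ester hydrolase Nceh1 (-0.65 ± 0.0726) fell as well. For these 5 genes all non-fibrillar arrays lay below all Matrigel arrays. This adds little to the calls, as only 7 of the 2755 genes called had overlapping arrays. Of 19 cholesterol synthesis genes, 8 rose, 1 fell (none without non-fibrillar replicate 1 or 3 or Matrigel replicate 2) and 10 did not pass, with a median of 0.181. They included the sterol oxidase Msmo1 (0.39 ± 0.0422), phosphomevalonate kinase Pmvk (0.44 ± 0.0476), the sterol reductase Tm7sf2 (0.42 ± 0.0654) and Idi1 (0.27 ± 0.0461). The sterol element motif TCACNCCAC stood in 1 of 15 windows of that list (6.67%), in 0 of 7 of its called members and in 0.993% of all windows.

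Genes of fat uptake, storage and breakdown fell in 11 of 25 cases and 14 did not pass, with a median of -0.151. Mgll led them, as given above. Lpl, the lipase that frees fatty acids from lipoproteins, was at 8.89, 8.91 and 9.07 against 9.74, 9.70 and 9.64, 1.66-fold lower (-0.73 ± 0.0538, adjusted p = 3.5e-05). The fatty acid carrier Fabp4 was at 5.23, 5.33 and 5.35 against 6.30, 6.20 and 6.47, 2.03-fold lower (-1.02 ± 0.0832, adjusted p = 7e-05). The droplet coat protein Plin4 (-0.99 ± 0.11), Fabp5 (-0.68 ± 0.106), the adipogenic receptor Pparg (-0.51 ± 0.0691) and the triglyceride lipase Pnpla2 (-0.45 ± 0.0453) fell too. Fabp4 and Pparg are also 2 of 9 adipocyte markers, both of which fell. The mean of that list was 5.83 to 5.87 in non-fibrillar collagen and 6.04 to 6.08 in Matrigel, with the defining hormone gene Adipoq at 3.99 to 4.11 over the 6 arrays, below the lower quartile of all genes. Lipe, also in that list, was at 7.28, 7.33 and 7.45 against 7.52, 7.55 and 7.49, above the median gene value of 6.44. The Lipe difference of -0.17 did not pass. Of 18 fatty acid synthesis genes, 5 fell and 13 did not pass, with a median of -0.103; without Matrigel replicate 2 or without Matrigel replicate 3 the number that fell was 3, and it was 8 with dim genes left out or a trended robust prior. They included the mitochondrial acetyl-CoA carboxylase Acacb (-0.65 ± 0.0935), the lipogenic factor Srebf1 (-0.28 ± 0.044) and ATP citrate lyase Acly (-0.20 ± 0.039), while fatty acid synthase Fasn was at -0.10 and did not pass.

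**Figure D2:**
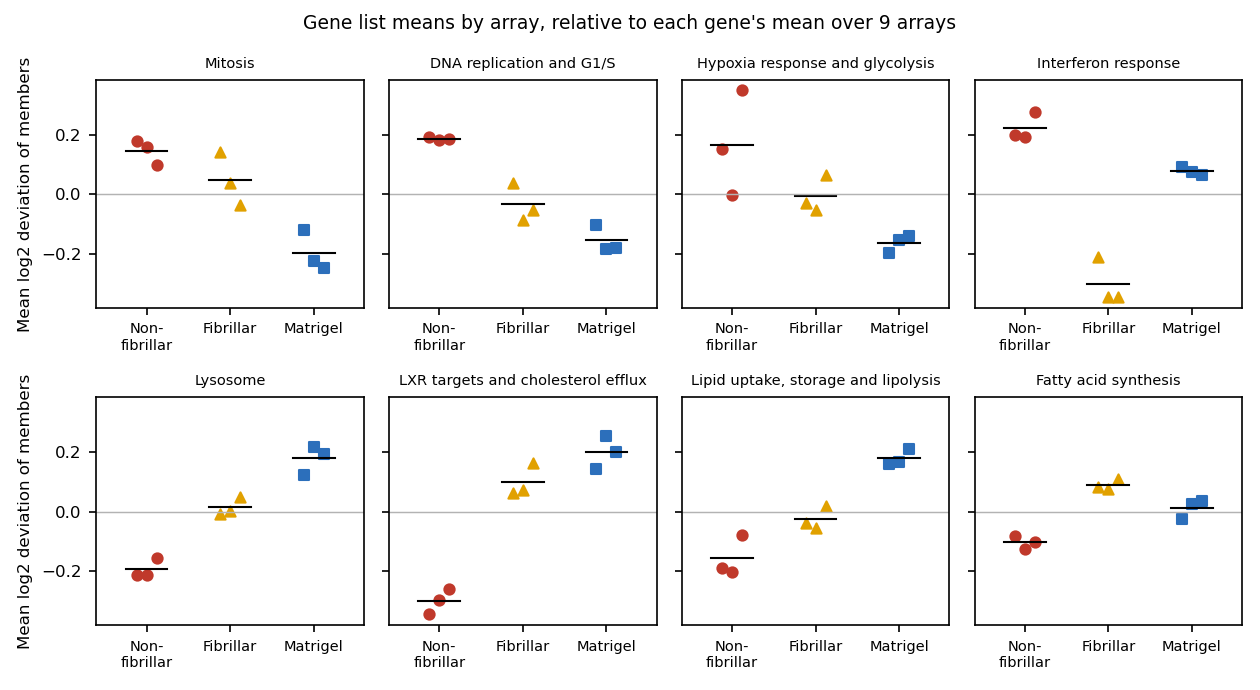
Mean log2 deviation of the members of 8 gene lists from each gene's mean over 9 arrays (y axis), by array, in non-fibrillar collagen I (circles), fibrillar collagen I (triangles) and Matrigel (squares), with a line at the mean of each group. The 8 lists were picked from 56, and their non-fibrillar and Matrigel points do not overlap. In lists not shown such points can overlap, as for YAP and TAZ targets, at 0.042, -0.039 and -0.06 against 0.033, 0.019 and -0.017. The hypoxia points of non-fibrillar collagen range from -0.003 to 0.350.

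Enzymes that handle oxidants and foreign compounds were lower in part. Of 22 NRF2 targets, 6 fell and 16 did not pass, with a median of -0.092. Heme oxygenase Hmox1 was at 9.87, 9.95 and 10.10 against 10.93, 11.09 and 10.95, 2.03-fold lower (-1.02 ± 0.0681, adjusted p = 2.1e-05). The epoxide hydrolase Ephx1 was at 7.62, 7.53 and 7.74 against 8.58, 8.59 and 8.72, 2.00-fold lower (-1.0 ± 0.0685, adjusted p = 2.4e-05). The cystine importer Slc7a11 (-0.48 ± 0.0566) and Gclm, which regulates glutathione synthesis (-0.24 ± 0.0436), fell by less. The antioxidant element TGANNNNGC stood in 9 of 17 windows of the list (52.9%), in 2 of 4 of its called members and in 35.4% of all windows. Of 20 glutathione S-transferases, 6 fell, 3 rose and 11 did not pass. Gstm1 (-1.09 ± 0.104), Gstm3 (-0.71 ± 0.0986) and Gstt1 (-0.59 ± 0.11) fell, and Gsto2 rose by 0.39 ± 0.0561; a Gstm probe set may read close copies too, so values of single Gstm genes are uncertain. Of 27 selenoproteins and selenium handling genes, 4 fell, 2 rose and 21 did not pass; 1 rose without non-fibrillar replicate 2, and 4 with dim genes left out. Beside Selenop the largest fall was in Dio2, the deiodinase that activates thyroid hormone, at 8.07, 8.31 and 8.19 against 9.37, 9.62 and 9.43, 2.43-fold lower (-1.28 ± 0.084, adjusted p = 2e-05).

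Glycolysis and hypoxia response genes were higher in non-fibrillar collagen, with 15 of 27 that rose, 12 that did not pass and a median of 0.267. The difference was above 0 for 27 of 27. The lactate exporter Slc16a3 was at 10.74, 10.41 and 10.78 against 10.08, 9.88 and 9.91, 1.61-fold higher (0.69 ± 0.106, adjusted p = 0.0024). The glucose transporter Slc2a1 was at 11.40, 11.22 and 11.58 against 10.81, 10.76 and 10.92, 1.48-fold higher (0.57 ± 0.0966, adjusted p = 0.0039). Bnip3, a mitophagy receptor induced by low oxygen, was at 10.38, 9.84 and 10.49 against 9.48, 9.41 and 9.45 (0.79 ± 0.16), and the carbonic anhydrase Car9 at 8.97, 8.49 and 9.36 against 8.17, 7.92 and 8.18 (0.85 ± 0.178). Non-fibrillar replicate 2 was the lowest and replicate 3 the highest of its group for Slc16a3, Slc2a1, Bnip3 and Car9. The mean deviation of the list was 0.152, -0.003 and 0.350 in the non-fibrillar arrays and -0.198, -0.152 and -0.138 in the Matrigel arrays. Without Matrigel replicate 2, Car9 no longer passed (adjusted p = 0.0539).

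Genes of mitochondrial respiration differed less. Of 32 respiratory chain and ATP synthase genes, 6 rose and 26 did not pass, with a median of 0.089, among them the complex I subunit Ndufs4 (0.27 ± 0.046). Without Matrigel replicate 2, or without non-fibrillar replicate 2 or 3, the number that rose was 3. Of 19 genes of the TCA cycle and pyruvate metabolism, 2 rose, 2 fell and 15 did not pass. None rose without Matrigel replicate 2, and 1 rose without any other single array of the groups compared. Pcx, given above, and the isocitrate dehydrogenase Idh1 (-0.34 ± 0.0453) fell.

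In the lists of protein production and turnover the called members of the proteasome and ribosome lists were higher, by small amounts. Of 25 subunits of the constitutive proteasome, 11 rose and 14 did not pass, with a median of 0.152. The regulatory subunit Psmd14 (0.31 ± 0.0498) and the catalytic subunit Psmb6 (0.29 ± 0.0505) had the largest values of the 4 members with the smallest p, and the count was 7 without non-fibrillar replicate 2 or without Matrigel replicate 3. Of 25 ribosome biogenesis genes and MYC targets, 10 rose and 15 did not pass, with a median of 0.183, among them ornithine decarboxylase Odc1 (0.34 ± 0.043). That count was 5 without non-fibrillar replicate 2 and 6 without Matrigel replicate 2. Of 19 cytosolic ribosomal proteins 6 rose, and 2 did so without Matrigel replicate 2, 3 without non-fibrillar replicate 2 or 3, and 10 with a trended robust prior. Of 26 mitochondrial ribosomal proteins 6 rose, led by Mrpl13 (0.40 ± 0.0548); 3 did so without Matrigel replicate 2 or non-fibrillar replicate 3, and 12 with dim genes left out.

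Genes of the integrated stress response, which cells use when amino acids run short, rose in 10 of 23 cases, fell in 2 and did not pass in 11, with a median of 0.187. Cth, which makes cysteine from cystathionine, was at 7.88, 8.02 and 7.89 against 7.16, 6.90 and 7.02, 1.87-fold higher (0.90 ± 0.0689, adjusted p = 4.6e-05). Asparagine synthetase Asns was at 10.98, 10.91 and 10.99 against 10.54, 10.57 and 10.59 (0.39 ± 0.039). The one-carbon enzyme Mthfd2 rose by 0.44 ± 0.063 and the stress protein Nupr1 by 0.52 ± 0.0785. The cystine importer Slc7a11, also in this list, fell, as given above. Without Matrigel replicate 2 the number that rose was 6, and the number that fell was 1 without any single array of the groups compared. The element TGATGNAA stood in 5 of 20 windows of the list (25%), in 3 of 10 of its called members and in 2.77% of all windows. Of 20 endoplasmic reticulum chaperones, 8 rose, 1 fell and 11 did not pass; 3 rose without non-fibrillar replicate 1, and 4 without non-fibrillar replicate 2 or without Matrigel replicate 2 or 3. Sdf2l1 had the largest rise among those named (0.46 ± 0.0577), and Sel1l, part of the degradation machinery of that organelle, fell by 0.26. Of 18 p53 targets, 4 fell, 1 rose (none without Matrigel replicate 2) and 13 did not pass, and the falls included the stress gene Gadd45a (-0.84 ± 0.0612) and the desmosome-linked Perp (-0.71 ± 0.0656).

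**Figure D3:**
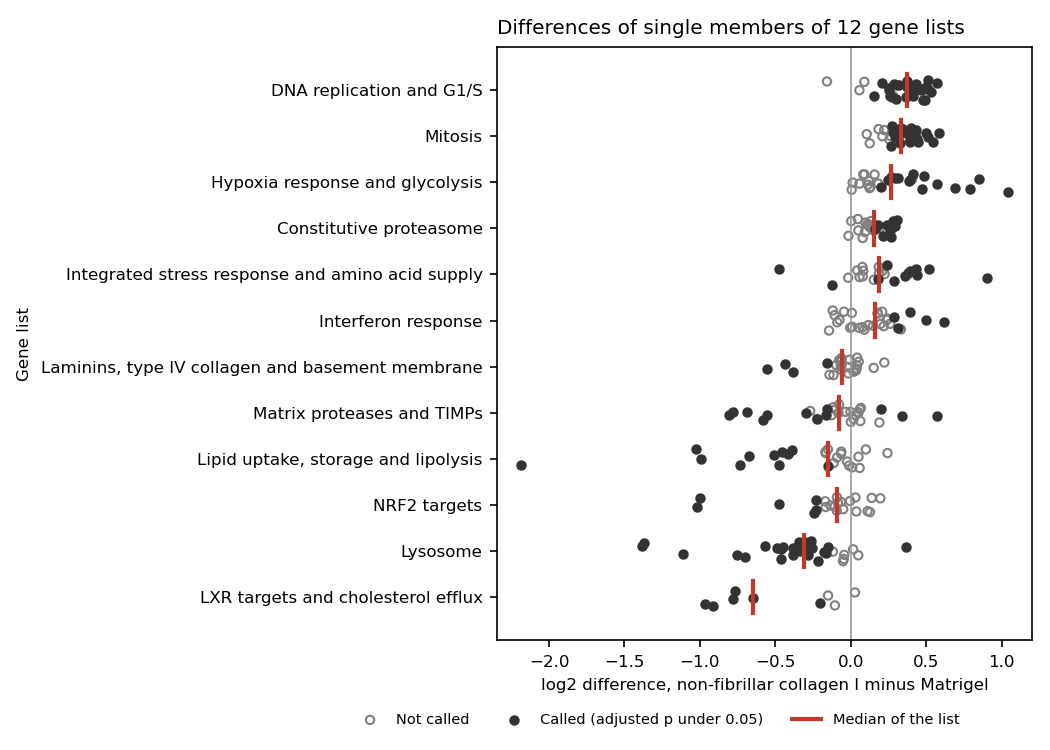
Log2 difference between non-fibrillar collagen I and Matrigel (x axis) for each measured member of 12 gene lists, with filled points for members called at an adjusted p under 0.05, open points for the others and a bar at the list's median. The medians run from 0.37 for DNA replication to -0.649 for LXR targets.

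A minority of interferon-induced genes was higher. Of 28 measured, 5 rose and 23 did not pass, with a median of 0.163; 8 rose after a repeated quantile normalization and with a trended robust prior. Usp18, which strips the modifier ISG15 from proteins, was at 9.15, 9.34 and 9.52 against 8.61, 8.81 and 8.74, 1.53-fold higher (0.62 ± 0.119, adjusted p = 0.0073). The oligoadenylate synthetase Oas1a was at 8.28, 8.21 and 8.43 against 7.85, 7.88 and 7.71 (0.50 ± 0.065), and the membrane protein Ifitm3 rose by 0.31 ± 0.0506. The number that rose was 3 without Matrigel replicate 3 and without non-fibrillar replicate 1 or 3. Oas and Ifitm genes have close copies that one probe set may read together, so the value of a single gene is uncertain. Of 12 genes of MHC class I presentation none passed limma's test, with 1 higher and 4 lower at an unadjusted p under 0.05. Over all 19938 genes tested, 5088 had an unadjusted p under 0.05 in that test. Fits that left out an array called up to 2 of the MHC class I genes lower. The interferon element GAAANNGAA stood in 10 of 21 windows of the list (47.6%), in 1 of 3 of its called members and in 6.9% of all windows.

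Genes for the matrix that cells make themselves went in both directions. Of 25 basement membrane genes, 4 fell, 0 rose and 21 did not pass, with a median of -0.061. Over all genes tested, 7.07% fell and 6.75% rose. In this list 1 rose after a repeated quantile normalization, and at most 1 in fits that left out an array. The laminin chain Lamb2 was at 8.93, 8.93 and 8.93 against 9.39, 9.52 and 9.54, 1.47-fold lower (-0.55 ± 0.0486, adjusted p = 0.00011). The laminin chain Lama3 fell by 0.44 and perlecan, Hspg2, by 0.38. Sparc was at -0.16 ± 0.0442 and its call was lost in 5 of the 6 fits that left out an array. Of 28 other collagens and their enzymes, 6 fell, 4 rose and 18 did not pass, and 2 rose without Matrigel replicate 2 or 3 or without non-fibrillar replicate 1 or 3. A pair of chains of collagen VI, which forms beaded filaments, fell: Col6a1 was at 10.94, 10.88 and 11.04 against 11.57, 11.64 and 11.75 (-0.70 ± 0.058), and Col6a2 at 10.62, 10.53 and 10.67 against 11.30, 11.39 and 11.46 (-0.78 ± 0.055). Col12a1, a fibril-associated collagen (-0.70 ± 0.0764), and Col5a3, a chain of the fibril-forming collagen V (-0.45 ± 0.0408), fell as well. Of 25 matricellular genes, 3 rose, 3 fell and 19 did not pass, and 1 fell without non-fibrillar replicate 2. Beside Tnc, connective tissue growth factor Ccn2 rose 1.83-fold (0.87 ± 0.109), at 8.47, 8.07 and 7.94 against 7.30, 7.31 and 7.26, and Matn2 fell by 0.73.

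Matrix receptors rose and fell. Of 24 integrins and matrix receptors, 7 fell, 2 rose and 15 did not pass, with a median of 0.01. Beside Itga2, the laminin-binding chain Itga3 rose 1.33-fold (0.42 ± 0.0509), with arrays from 10 to 10.11 against 9.61, 9.65 and 9.70. The other collagen-binding chain named, Itga1, fell by 0.52, at 5.28, 5.35 and 5.15 against 5.91, 5.72 and 5.72. The laminin-binding Itga7 fell by 0.49, the integrin beta chain Itgb8 by 0.51 and the integrin-associated protein Cd47 by 0.31. Of 9 syndecans and glypicans, 3 fell, 1 rose and 5 did not pass. Syndecan 3 (Sdc3) was at 9.75, 9.84 and 9.83 against 10.60, 10.56 and 10.64, 1.73-fold lower (-0.79 ± 0.0415, adjusted p = 8.4e-06), and glypican 1 (Gpc1) rose by 0.41 ± 0.04.

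Matrix proteases and their inhibitors fell more often than they rose, with 9 of 31 lower, 3 higher and 19 that did not pass. The inhibitor Timp1 rose 1.49-fold (0.57 ± 0.0396, adjusted p = 2.5e-05), at 12.40, 12.44 and 12.45 against 11.86, 11.83 and 11.89, whereas Timp2 fell by 0.30. The metalloproteases Mmp28 (-0.81 ± 0.0889), Mmp13 (-0.78 ± 0.125), Mmp11 (-0.58 ± 0.0613) and Mmp19 (-0.55 ± 0.112) and the aggrecanase Adamts5 (-0.69 ± 0.102) fell. In the plasminogen activator system 3 of 11 genes rose and 8 did not pass. Beside Plau, its receptor Plaur rose by 0.50 ± 0.0692, at 10.73, 10.84 and 10.68 against 10.37, 10.25 and 10.14. The serpin Serpinb5 was at 7.49, 7.69 and 7.43 against 7.25, 7.19 and 7.20 (0.32 ± 0.0721, adjusted p = 0.015), and its call was lost without Matrigel replicate 2 or 3.

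**Figure D4:**
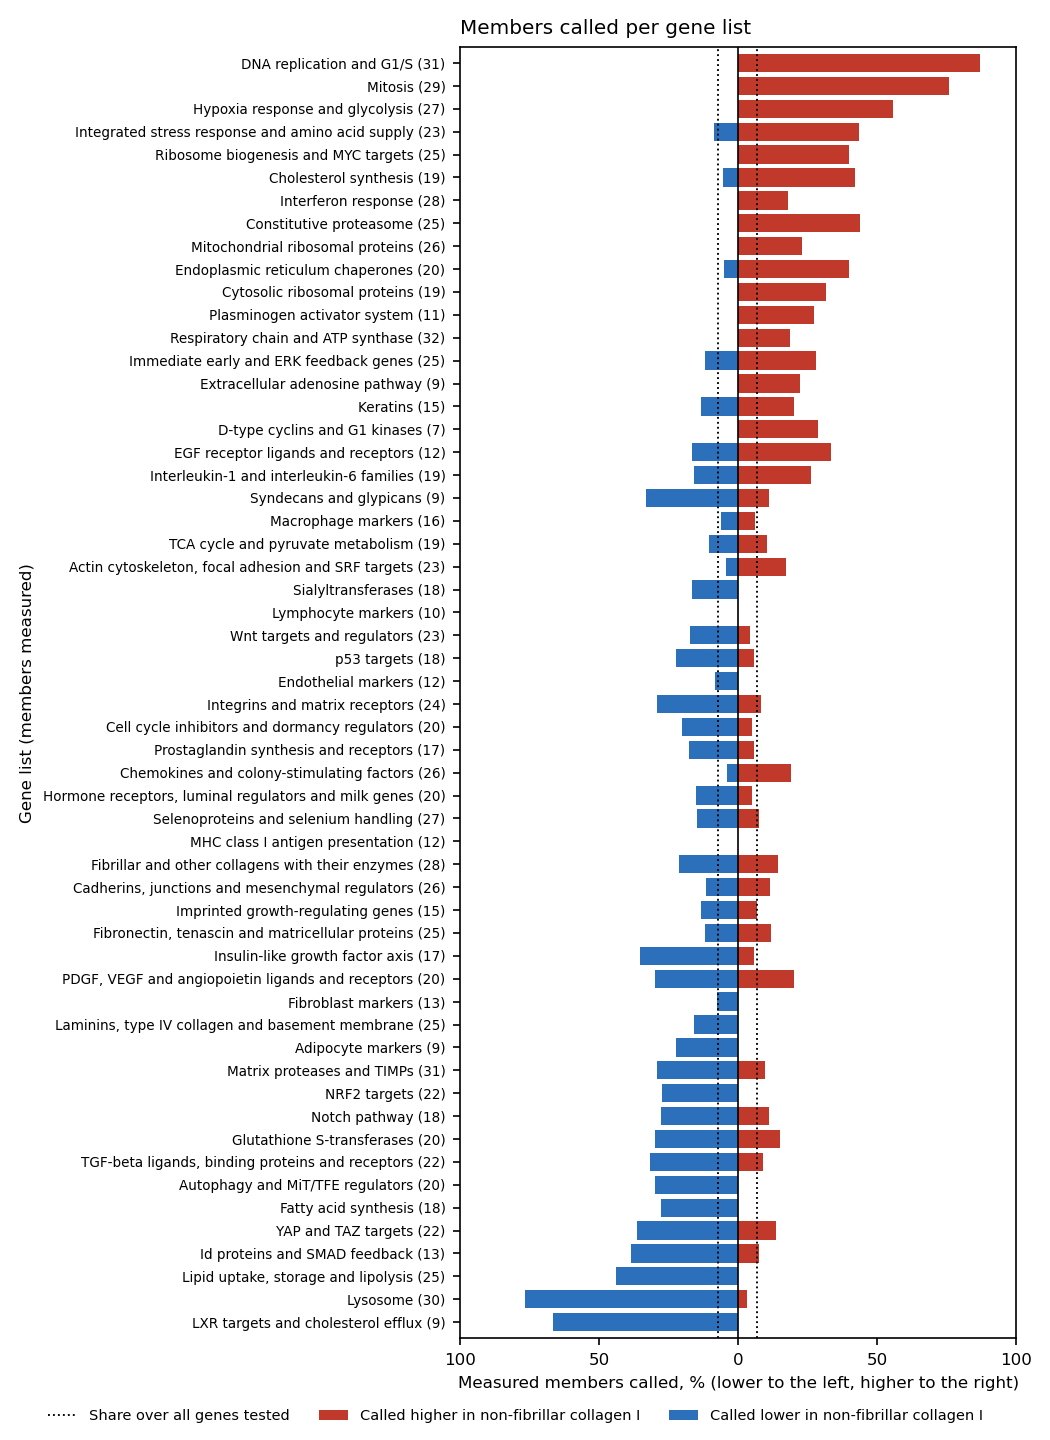
Share of measured members called higher (to the right) or lower (to the left) in non-fibrillar collagen I than in Matrigel for each of 56 gene lists, ordered by the median difference, with dotted lines at the shares over all genes tested (6.75% higher and 7.07% lower). DNA replication reaches 87.1% called higher, and LXR targets 66.7% called lower.

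Targets of YAP and TAZ, factors that respond to stiffness and cell shape, fell in 8 of 22 cases, rose in 3 and did not pass in 11, with a median of -0.108. Ankrd1 was at 10.24, 10.33 and 10.20 against 9.36, 9.41 and 9.46, 1.80-fold higher (0.85 ± 0.0459, adjusted p = 8.6e-06), and Ccn2 and Nt5e rose, as given above, while Tgfb2 and Foxf2 fell by 0.89 and 0.62. The number that fell was 5 without Matrigel replicate 1 or without non-fibrillar replicate 2 or 3. Of 23 genes of the actin cytoskeleton, focal adhesions and SRF, 4 rose, 1 fell (none without any single array of the groups compared other than Matrigel replicate 1) and 18 did not pass, with the focal adhesion protein Tes at 0.44 ± 0.0542 and calponin Cnn2 at 0.40 ± 0.0594.

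In the TGF-beta family 7 of 22 ligands, binding proteins and receptors fell, 2 rose and 13 did not pass; 1 rose without Matrigel replicate 3 or without non-fibrillar replicate 1 or 2. Ltbp2, a binding protein of the latent complex family, was at 7.48, 7.61 and 7.50 against 8.48, 8.49 and 8.65, 2.01-fold lower (-1.01 ± 0.0595, adjusted p = 1.1e-05). The ligand Tgfb2 was at 8.50, 8.23 and 8.44 against 9.27, 9.33 and 9.24, 1.86-fold lower (-0.89 ± 0.0659, adjusted p = 3.7e-05). Tgfb3 (-0.53 ± 0.0828) and Tgfb1 (-0.32 ± 0.048) fell by less, and the activin antagonist Fst rose by 0.69 ± 0.111. Of 13 Id proteins and SMAD feedback genes, 5 fell, 1 rose and 7 did not pass; 3 fell with the 6 arrays alone, without Matrigel replicate 2 or 3, or without non-fibrillar replicate 1 or 3. The differentiation inhibitor Id3 was at 9.83, 10.23 and 9.94 against 10.78, 10.84 and 10.79, 1.75-fold lower (-0.80 ± 0.0864), and its relative Id2 fell by 0.51.

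Secreted signals of inflammation were mixed. Of 19 genes of the interleukin-1 and interleukin-6 families, 5 rose, 3 fell and 11 did not pass, and 3 rose without non-fibrillar replicate 1. Beside Il1a, the cytokine Lif was at 7.24, 7.18 and 7.25 against 6.52, 6.44 and 6.38, 1.71-fold higher (0.77 ± 0.0915, adjusted p = 0.00057). Its receptor chain Lifr rose by 0.43 ± 0.0548, and the shared chain Il6st fell by 0.32. Of 26 chemokines and colony-stimulating factors, 5 rose, 1 fell and 20 did not pass, and 3 rose without Matrigel replicate 2 or 3 or without non-fibrillar replicate 1 or 2. Cxcl16 was at 8.70, 8.72 and 8.50 against 7.91, 7.71 and 7.72 (0.86 ± 0.0748), the granulocyte factor Csf3 rose by 0.79 ± 0.0968 and Ccl7 fell by 0.44. Of 17 prostaglandin genes 1 rose, the phospholipase Pla2g4a (0.37 ± 0.0661), 3 fell, and none fell without non-fibrillar replicate 2 or without Matrigel replicate 2. With the 6 arrays alone 1 fell.

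Ligands of the EGF receptor and the feedback genes of its pathway rose and fell. Of 12 ligands, receptors and direct inhibitors, 4 rose, 2 fell and 6 did not pass; 1 fell without non-fibrillar replicate 2 or 3 or without Matrigel replicate 3. The ligand Hbegf was at 10.36, 10.49 and 10.39 against 9.55, 9.46 and 9.51, 1.88-fold higher (0.91 ± 0.0469, adjusted p = 7.5e-06). The receptor inhibitor Errfi1 was at 10.48, 10.66 and 10.63 against 9.71, 9.93 and 9.87, 1.69-fold higher (0.76 ± 0.0651, adjusted p = 9.7e-05). The ligand Nrg1 rose by 0.35 ± 0.0555 and the receptor Erbb3 fell by 0.43. Of 25 immediate early and ERK feedback genes, 7 rose, 3 fell and 15 did not pass, among them Ier2 (0.49 ± 0.0522), Ier3 (0.48 ± 0.0542) and the ETS factor Etv5 (0.40 ± 0.0442) that rose and the phosphatase Dusp4 (-0.53 ± 0.0582) that fell.

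In the Notch pathway 5 of 18 genes fell, 2 rose and 11 did not pass; 1 rose without non-fibrillar replicate 1 or without any single Matrigel array. The receptor Notch1 (-0.58 ± 0.0674) and the target genes Hey1 (-0.51 ± 0.0765) and Hey2 (-0.33 ± 0.0599) fell, and the ligand Dll4 rose by 0.76 ± 0.153, at 7.87, 8.47 and 8.29 against 7.34, 7.33 and 7.67. Of 23 Wnt targets and regulators, 4 fell, 1 rose (none without non-fibrillar replicate 2 or 3 or Matrigel replicate 2) and 18 did not pass, with the feedback inhibitors Notum (-0.82 ± 0.0853) and Axin2 (-0.72 ± 0.0919) and the receptor Fzd7 (-0.36 ± 0.0731) among those that fell. In the insulin-like growth factor axis 6 of 17 genes fell, 1 rose and 10 did not pass; 3 fell without Matrigel replicate 2. Igfbp4 rose, as given above, whereas Igfbp5 (-0.67 ± 0.111), the adaptor Irs1 (-0.41 ± 0.052) and the clearance receptor Igf2r (-0.37 ± 0.0544) fell.

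Of 20 ligands and receptors of the PDGF, VEGF and angiopoietin families, 6 fell, 4 rose and 10 did not pass, and 2 rose without Matrigel replicate 2 or 3 or without non-fibrillar replicate 2. Pdgfra, the alpha receptor for platelet-derived growth factor, was at 10.16, 10.12 and 10.44 against 11.11, 11.36 and 11.28, 2.01-fold lower (-1.01 ± 0.0938, adjusted p = 0.00015). Angpt1 (-0.82 ± 0.128) and the co-receptor Nrp1 (-0.46 ± 0.0443) fell, and the ligands Pdgfd (0.53 ± 0.0984) and Pdgfb (0.43 ± 0.0726) rose. Pdgfra is also 1 of 13 fibroblast markers and was the only member of that list that passed in either direction (2 fell without Matrigel replicate 2). That is 7.69% of the list, against 7.07% of all genes that fell. The list mean was 6.14 to 6.23 in non-fibrillar collagen and 6.25 to 6.33 in Matrigel. Of 9 genes of the extracellular adenosine pathway, 2 rose: Nt5e, given above, and the kinase Adk (0.20 ± 0.0518), whose call was lost in 5 of the 6 fits that left out an array.

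Among genes of epithelial identity, 3 of 15 keratins rose, 2 fell and 10 did not pass; 5 rose with dim genes left out, a trended robust prior or array weights. Beside Krt7 the luminal keratin Krt18 rose by 0.28 ± 0.0399, while Krt6a was at 7.60, 7.72 and 7.79 against 8.34, 8.35 and 8.42, 1.59-fold lower (-0.67 ± 0.0517), and the basal keratin Krt14 fell by 0.30. Of 26 cadherins, junction genes and mesenchymal regulators, 3 rose, 3 fell and 20 did not pass. The tight junction protein Cldn1 was at 7.91, 7.67 and 7.80 against 7.25, 7.19 and 6.96 (0.66 ± 0.0818), the desmosome protein Dsp fell by 0.59 and the transcription factors Snai2 and Zeb2 by 0.49 and 0.39. Of 20 hormone receptors, luminal regulators and milk genes, 3 fell, 1 rose and 16 did not pass, with Stat5a, which carries the prolactin signal, at -0.55 ± 0.0582 and the milk protein Csn3 at 0.43 ± 0.0587 but at 3.78 to 4.35 log2 units, below the lower quartile of all genes. Of 15 imprinted growth genes, Phlda2 rose by 0.53 ± 0.0526, 2 fell and 12 did not pass; Peg3 was at 9.55, 9.58 and 9.65 against 10.39, 10.84 and 10.80, 2.12-fold lower (-1.08 ± 0.118). Of 18 sialyltransferases, 3 fell and 15 did not pass, led by St6galnac4 (-0.48 ± 0.0456).

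Markers of other cell types were described above beside the lists they touch, and the endothelial and lymphocyte lists remain. In the endothelial list 8.33% fell, against 7.07% of all genes. Of 12 endothelial markers, Kdr alone fell (-0.47 ± 0.0853), at 5.88, 5.59 and 5.73 against 6.09, 6.18 and 6.33, and the list mean was 5.58 to 5.65 in non-fibrillar collagen and 5.62 to 5.68 in Matrigel, with the defining marker Pecam1 at 4.85 to 4.95. Flt1, a VEGF receptor of the same list, was at 9.15, 9.15 and 9.06 against 8.97, 9.02 and 9.04, above the upper quartile of all genes of 8.48, and its difference of 0.11 did not pass (adjusted p = 0.12). The median difference of that list, 0.016, had the opposite sign to the difference of these means. The 10 lymphocyte markers had a mean of 4.69 to 4.77 against 4.69 to 4.73. None passed limma's test, with 1 higher and 0 lower at an unadjusted p under 0.05, against 5088 of all 19938 genes.

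The form of the collagen was compared with the fibrillar arrays, as limma tested non-fibrillar with fibrillar collagen in the same fit, where 8.85% of all genes passed. The comparisons with Matrigel share their control arrays, so the values are set side by side and not as separate evidence. For several genes the fibrillar arrays lay between the other groups. Nt5e was at 9.99, 9.86 and 9.78 in fibrillar collagen, 0.92 below its level in non-fibrillar collagen (adjusted p = 0.00054) and 0.75 above Matrigel. Itga2 was at 7.20, 7.20 and 7.15 there, and the difference between the collagens was 0.67 (adjusted p = 0.00041). Lipa was at 11.51, 11.51 and 11.55, with a difference between the collagens of -0.63 (adjusted p = 0.00052).

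For other genes the fibrillar values lay near one of the groups. Selenop was at 6.76, 6.85 and 7.12 in fibrillar collagen, and the difference between the collagens, -0.06, did not pass (adjusted p = 0.82). Cyclin D1 was at 11.94, 11.94 and 12.03, with a difference between the collagens of 0.07 that did not pass (adjusted p = 0.42). Igfbp4 was at 7.60, 7.30 and 7.34, so that its difference from non-fibrillar collagen was 1.11 (adjusted p = 0.00039) and its difference from Matrigel, 0.13, did not pass (adjusted p = 0.44). Abca1 was at 8.90, 9.08 and 9.05, with a difference between the collagens of -0.99 (adjusted p = 0.00057) and one from Matrigel of 0.08 that did not pass (adjusted p = 0.66). Ankrd1 (9.56, 9.53 and 9.53), Lamb2 (9.47, 9.42 and 9.52) and cyclin E2 (7.49, 7.63 and 7.51) likewise had fibrillar values near those in Matrigel, with differences between the collagens of 0.72, -0.54 and 0.53 that passed and differences from Matrigel of 0.13, -0.01 and -0.01 that did not.

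The genes with the largest differences from Matrigel for which the collagens did not differ past the threshold were Plau (0.37, adjusted p = 0.052), Egln3 (0.55, adjusted p = 0.16), Mgll (-0.71, adjusted p = 0.079), Bace2 (-0.30, adjusted p = 0.26) and Selenop. A p above the threshold does not show that the collagens act alike on these genes. Usp18 was at 8.24, 7.81 and 7.97 in fibrillar collagen, below both other groups. Oas1a was at 7.67, 7.72 and 7.65 there, 0.63 below its level in non-fibrillar collagen (adjusted p = 0.00091), and its difference from Matrigel, -0.13, did not pass (adjusted p = 0.32). In the plots by array the fibrillar means of the interferon list, -0.210, -0.346 and -0.346, lie below the Matrigel values of 0.093, 0.076 and 0.064.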

How the data were processed

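RNA from D2.OR cells was measured on 9 Affymetrix arrays, 3 per group by title. Each deposited value is a probe set's log2 expression, which the authors computed by RMA in Affymetrix Power Tools (source: the submitters' processing notes). RMA makes the arrays' distributions alike, so a shift common to most genes can be lost. Not given in the sources used here were the version, the options and the number of normalization runs. Of 35512 probe sets, 21789 had a single gene symbol in the platform annotation, 1621 several, and 12102 were unlisted here. For 999 genes with several probe sets the one with the highest mean over 9 arrays was used. This left 19938 genes, and none were filtered or rescaled.

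The model (R 4.3.3, limma 3.58.1, functions lmFit and eBayes) had a mean per group and used 9 arrays. Tests were two-sided, p-values were adjusted by Benjamini-Hochberg over the 19938 genes, and 0.05 was the threshold. Errors are limma's standard errors (SE). The fibrillar arrays enter the main comparison only through the estimate of the spread. Gene lists (56, with 1124 of 1205 entries measured) were described by counts and medians and not tested as sets. Members and lists were chosen with earlier results of these data known. Named genes were the 12 largest differences in each direction among genes called with arrays that did not overlap (predicted models left out), the 4 genes with the smallest p, cell line markers, and in each list up to 4 members with the smallest p and those called at 0.5 log2 or more. Cdt1, E2f1, Mki67, Fasn, Ctsh and Mcoln1 were named outside this rule after their values were seen, as were Csf1r, Adgre1 and Adipoq as defining markers.

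Data were simulated for 19938 genes with independent normal noise, and 200 genes were changed by 0.5 or 1 log2. Of changes of 0.5 log2, 87% were called, and of changes of 1 log2, 100%, and 2.6% of calls were false. Smaller changes and genes that vary together were not simulated. The real calls had a median size of 0.291, so these rates need not hold for them. Precision is limited by having 3 arrays per group. Alternatives covered the arrays in the fit, the replicate block, normalization, centring, dim genes, several probe sets, the prior, array weights, the threshold and the removal of single arrays. The replicate numbers were not taken to pair the arrays, as no label says that they do. Residuals of non-fibrillar and Matrigel arrays numbered 1, 2 and 3 correlated at 0.125, 0.045 and 0.135. Arrays with different numbers were not compared in this way, so these values cannot decide whether the numbers pair the arrays.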

Additional observations from a re-analysis of the deposited data

Results flagged for a closer look

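Usp18 differed in direction between the collagens. It was higher in non-fibrillar collagen than in Matrigel (0.62 ± 0.119) and lower in fibrillar collagen than in Matrigel (-0.71), and the test of non-fibrillar against fibrillar collagen gave a difference of 1.33 log2 units (limma, adjusted p = 0.00061). Its levels were 9.15, 9.34 and 9.52 in non-fibrillar collagen, 8.61, 8.81 and 8.74 in Matrigel and 8.24, 7.81 and 7.97 in fibrillar collagen, with no overlap between any of the groups.

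The serpin gene Serpinb5 had the same order, with 7.49, 7.69 and 7.43 in non-fibrillar collagen, 7.25, 7.19 and 7.20 in Matrigel and 6.87, 6.74 and 6.68 in fibrillar collagen. The difference between the collagens was 0.77 (limma, adjusted p = 0.00061), against 0.32 for non-fibrillar collagen minus Matrigel and -0.45 for fibrillar collagen minus Matrigel (adjusted p = 0.015 and 0.0097).

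Probe sets without a single gene symbol were left out of the comparison of genes. In a limma fit of all 35512 probe sets, 2892 passed (8.14%), and 622 of these were among the 13723 probe sets without a single symbol (4.53%), 312 higher and 310 lower in non-fibrillar collagen.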

How the results depend on the processing

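Of the 261 named genes 227 were called, and 200 of these kept the call in all 6 fits that left out an array; 27 lost it in at least 1, Tagln2 in all 6. Among the 3883 alternatives computed for the named genes, no direction reversed where a gene was called in the main fit or the alternative. Sign changes of genes called in neither were not counted as reversals. Of the alternatives, 3713 stayed on the same side of the threshold, 129 lost the call and 41 gained it. At an adjusted p under 0.01, 1419 genes passed (615 higher, 804 lower), and 614 between the collagens. Leaving out 1 array gave 1814 to 2492 calls (823 to 1249 higher, 991 to 1243 lower), lowest without Matrigel replicate 2. For non-fibrillar against fibrillar collagen, where 1765 genes passed, leaving out 1 array gave 981 to 1332. The lowest counts were 981 without non-fibrillar replicate 2, 1058 without non-fibrillar replicate 3, and 1052 and 1054 without fibrillar replicate 2 or 3. With the replicate block 3244 genes passed (1595 higher, 1649 lower), with 96.6% of the 2755 calls kept, and 2223 between the collagens. The other alternatives gave 2276 calls with 6 arrays only to 3428 with dim genes left out, where 9969 genes were tested. The cause was not tested. Signal over background was not measured here.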
